A study of Homo sapiens with 13 samples.

Results

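The genes that carry the interleukin-13 (IL-13) signal from the cell surface were followed in TE-7 cells: the receptor chains IL4R, IL13RA1, IL13RA2 and IL2RG, the kinases JAK1, JAK2 and TYK2, the transcription factor STAT6, and the adaptors IRS1 and IRS2. They were chosen by gene symbol, and all 10 were found among the 23637 genes measured. TE-7 is an established human esophageal line that the labels give as epithelial. It was once described as an adenocarcinoma and was later reported to be of squamous origin and to share its identity with other TE lines. Cells were left untreated or given IL-13 at 100 ng/ml. RNA was taken after 2, 6 and 24 hr, which gave 6 libraries with 1 for each treatment and time. Chromatin was taken at 6 hr from untreated and IL-13-treated cells and precipitated for H3K4me3, H3K9Ac or H3K27Ac, histone marks found at active gene starts, which gave 6 more libraries. No genotype was changed, and all cells were of the same line, so nothing here measures a spread between lines or donors.

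IL-13 binds IL13RA1, and the pair then takes up IL4R to form the type II receptor, the form found on epithelium. The type I receptor joins IL4R to IL2RG, the common gamma chain, and answers IL-4 on blood cells. IL13RA2 binds IL-13 tightly with a short cytoplasmic tail and is mostly known as a decoy. JAK1 sits on IL4R, and JAK2 and TYK2 are linked to IL13RA1. The kinases phosphorylate the tail of IL4R, where STAT6 docks, is phosphorylated, pairs with another STAT6 and enters the nucleus. IRS1 and IRS2 dock on another part of the same tail and link the receptor to phosphoinositide 3-kinase.

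The 300 bases around the start (250 before and 50 after) of 5 of these genes are shown. They include starts with many and with few CpGs and are referred to again with the histone marks. They come from RefSeq on GRCh38.p14, read 5′ to 3′ along the gene, and capitals mark each CpG. These entries were not matched to the starts in the authors' tables, which are on hg19.
IL13RA1 (chrX:118727356-118727655, plus strand): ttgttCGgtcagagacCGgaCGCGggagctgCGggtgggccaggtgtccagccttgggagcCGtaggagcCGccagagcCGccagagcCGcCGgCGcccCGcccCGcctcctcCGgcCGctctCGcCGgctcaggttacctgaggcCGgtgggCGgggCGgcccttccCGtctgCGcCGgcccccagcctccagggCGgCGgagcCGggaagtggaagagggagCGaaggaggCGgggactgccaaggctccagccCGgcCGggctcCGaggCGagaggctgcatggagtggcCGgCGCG
IL4R (chr16:27313724-27314023, plus strand): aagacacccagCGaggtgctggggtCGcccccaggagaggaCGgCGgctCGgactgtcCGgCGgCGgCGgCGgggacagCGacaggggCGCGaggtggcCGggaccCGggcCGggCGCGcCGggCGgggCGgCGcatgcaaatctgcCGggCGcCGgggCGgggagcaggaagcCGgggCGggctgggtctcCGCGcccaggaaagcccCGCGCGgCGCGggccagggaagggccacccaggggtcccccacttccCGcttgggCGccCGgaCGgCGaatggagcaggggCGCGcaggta
IRS1 (chr2:226799771-226800070, minus strand): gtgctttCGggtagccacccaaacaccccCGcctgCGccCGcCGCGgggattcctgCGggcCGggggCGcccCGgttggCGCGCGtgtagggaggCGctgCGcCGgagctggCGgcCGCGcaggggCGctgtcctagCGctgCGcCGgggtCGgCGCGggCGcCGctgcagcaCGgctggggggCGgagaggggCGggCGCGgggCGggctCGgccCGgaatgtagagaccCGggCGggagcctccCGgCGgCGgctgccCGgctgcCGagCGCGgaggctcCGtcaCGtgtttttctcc
STAT6 (chr12:57110240-57110539, minus strand): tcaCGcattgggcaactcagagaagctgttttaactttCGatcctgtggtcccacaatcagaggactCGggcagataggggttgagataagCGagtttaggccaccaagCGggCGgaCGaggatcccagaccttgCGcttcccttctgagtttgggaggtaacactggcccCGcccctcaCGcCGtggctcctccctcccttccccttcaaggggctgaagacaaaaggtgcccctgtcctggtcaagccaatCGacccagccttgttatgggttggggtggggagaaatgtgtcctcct
IL2RG (chrX:71111528-71111827, minus strand): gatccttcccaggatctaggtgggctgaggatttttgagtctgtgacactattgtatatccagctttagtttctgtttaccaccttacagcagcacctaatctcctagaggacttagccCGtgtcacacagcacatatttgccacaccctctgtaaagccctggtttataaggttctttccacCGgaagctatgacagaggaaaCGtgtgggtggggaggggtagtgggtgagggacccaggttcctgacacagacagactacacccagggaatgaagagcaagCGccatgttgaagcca
The IRS1 start held 47 CpGs, that of IL4R 42 and that of IL13RA1 35, against a median of 14 over 35116 RefSeq promoters (interquartile range 4 to 28). STAT6 had 12 and IL2RG 4. IRS2 had the most of the 14 entries found for 9 of the 10 genes, at 50. TYK2 had 24. JAK1 ranged from 9 to 43 over its 3 entries, and JAK2 from 11 to 39 over its 4. IL13RA2 had no entry. The palindrome TTCNNNNGAA, the spacing preferred by STAT6, was in 0 of the 14 windows and in 6.44% of all promoters. TTCNNNGAA, the spacing of other STATs, was also in 0 of 14 and in 7.66% of all promoters. Both motifs are their own reverse complement, so a search of the printed strand covers both strands.

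Levels are in RPKM, reads scaled by gene length and by mapped reads, which allows genes of different length to be compared. The labelled cell type and treatment were checked first. All 13 squamous and simple epithelial markers reached 1 RPKM in every library, while of 10 leukocyte markers MS4A1, a B cell gene, was listed at 0 in all 6, and CD68 and HBB alone reached 1 RPKM. CCL26, a STAT6 target chemokine, stood at 5.41, 6.27 and 5.51 RPKM in the untreated cells and at 23.2, 54.8 and 166 RPKM with IL-13 at 2, 6 and 24 hr. Of 10 brain genes, 6 reached 1 RPKM in the untreated 2 hr library and 1 in each of the others, with summed levels of 22.8 RPKM there and 6.27 to 8.04 RPKM elsewhere. The untreated 2 hr and 6 hr libraries had 359 identical values above 0, against 0 in each of the other 14 pairs. The low values of both fall on steps of a read set of 15.7 M (mega) reads, with a second set of 26.9 M at 2 hr and 15.3 M at 6 hr, so these controls appear to share reads. The 2 IL-13 libraries at 2 and 6 hr also had 2 read sets each (13.0 to 18.3 M), while the 24 hr libraries had 1 (13.6 and 14.0 M). The part of these differences in the results was not tested.

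RNA of both chains of the type II receptor was present in every library. IL4R (chromosome 16, 27325230 to 27376099, plus strand, on hg19 as are all gene positions given) stood at 32.1, 29.3 and 16.7 RPKM in untreated cells at 2, 6 and 24 hr, and at 29.2, 26.4 and 12.4 RPKM with IL-13. The IL-13 library was the lower at each time, and both 24 hr libraries lay below the 4 earlier ones. IL13RA1 (chromosome X, 117861559 to 117928496, plus strand) stood at 19.0, 18.0 and 17.7 RPKM in untreated cells and at 19.2, 17.6 and 15.6 RPKM with IL-13. Its highest level was 1.23 times its lowest, the smallest range of the 8 genes that reached 1 RPKM. The ratio of IL13RA1 to IL4R was 0.593 to 0.667 in the 4 libraries at 2 and 6 hr, and 1.06 without and 1.26 with IL-13 at 24 hr, so the chain with less RNA was IL13RA1 at 2 and 6 hr and IL4R at 24 hr.

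The other receptor chains were near the floor. IL2RG (chromosome X, 70327254 to 70331481, minus strand) stood at 0.421, 0.589 and 0.336 RPKM in untreated cells and at 0.266, 0.248 and 0.325 RPKM with IL-13, below IL4R in every library. JAK3, the kinase that pairs with the common gamma chain and a gene of the wider pathway lists, stood at 0.256 to 0.276 RPKM at 2 and 6 hr and at 0.990 and 1.06 RPKM at 24 hr. IL13RA2 (chromosome X, 114238538 to 114252207, minus strand) stood at 0.0678 RPKM in both 2 hr libraries, at 0.0238 and 0.0398 RPKM at 6 hr and at 0.161 and 0.364 RPKM at 24 hr, untreated before IL-13. Its highest value, with IL-13 at 24 hr, was below 1 RPKM and below IL13RA1. No ratio is given for either gene, since neither reached 1 RPKM. Of the ligands, IL4 was listed at 0 in all 6 libraries, and IL13 did not exceed 0.0841 RPKM.

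Among the kinases JAK1 was the most abundant and JAK2 the least, and the gap narrowed by 24 hr. JAK1 (chromosome 1, 65298906 to 65432187, minus strand) stood at 28.2, 23.5 and 27.7 RPKM in untreated cells and at 28.1, 21.8 and 29.5 RPKM with IL-13. JAK2 (chromosome 9, 4985245 to 5128183, plus strand) stood at 2.28, 2.02 and 6.89 RPKM in untreated cells and at 2.73, 2.52 and 7.08 RPKM with IL-13. Both 24 hr libraries lay above all 4 earlier ones. TYK2 (chromosome 19, 10461204 to 10491248, minus strand) stood at 6.53, 6.22 and 10.7 RPKM in untreated cells and at 6.92, 6.54 and 9.85 RPKM with IL-13. JAK1 was 8.68 to 12.4 times as high as JAK2 at 2 and 6 hr, and 4.02 and 4.16 times as high at 24 hr. TYK2, the other kinase linked to IL13RA1, was 2.53 to 3.08 times as high as JAK2 at 2 and 6 hr and 1.56 and 1.39 times as high at 24 hr.

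STAT6 had the highest level of the 10 genes in all 6 libraries. STAT6 (chromosome 12, 57489187 to 57505196, minus strand) stood at 38.0, 40.2 and 60.3 RPKM in untreated cells and at 38.3, 41.5 and 60.9 RPKM with IL-13. The untreated and treated libraries of a time were close, and both 24 hr libraries lay above the rest. STAT6 was 1.35 to 1.90 times as high as JAK1 at 2 and 6 hr and 2.18 and 2.06 times at 24 hr.

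Of the 8 genes that reached 1 RPKM, IRS1 varied most over the libraries. IRS1 (chromosome 2, 227596033 to 227663506, minus strand) stood at 12.7, 11.8 and 2.82 RPKM in untreated cells and at 11.3, 8.15 and 1.14 RPKM with IL-13. It was lower with IL-13 at each time and lower at 24 hr than at any earlier time, and its highest level was 11.1 times its lowest. IRS2 (chromosome 13, 110406184 to 110438914, minus strand) stood at 7.82, 3.64 and 4.48 RPKM in untreated cells and at 7.27, 2.64 and 4.29 RPKM with IL-13. Both 2 hr libraries lay above the other 4, and both 6 hr libraries were the lowest. IRS1 was 1.55 to 3.23 times as high as IRS2 at 2 and 6 hr, and 0.630 times as high without and 0.266 times with IL-13 at 24 hr. IRS2 was thus the adaptor with more RNA at 24 hr. A lower level in bulk RNA could reflect fewer cells of a kind or less RNA in each cell, which cannot be told apart.

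**Figure D1:**
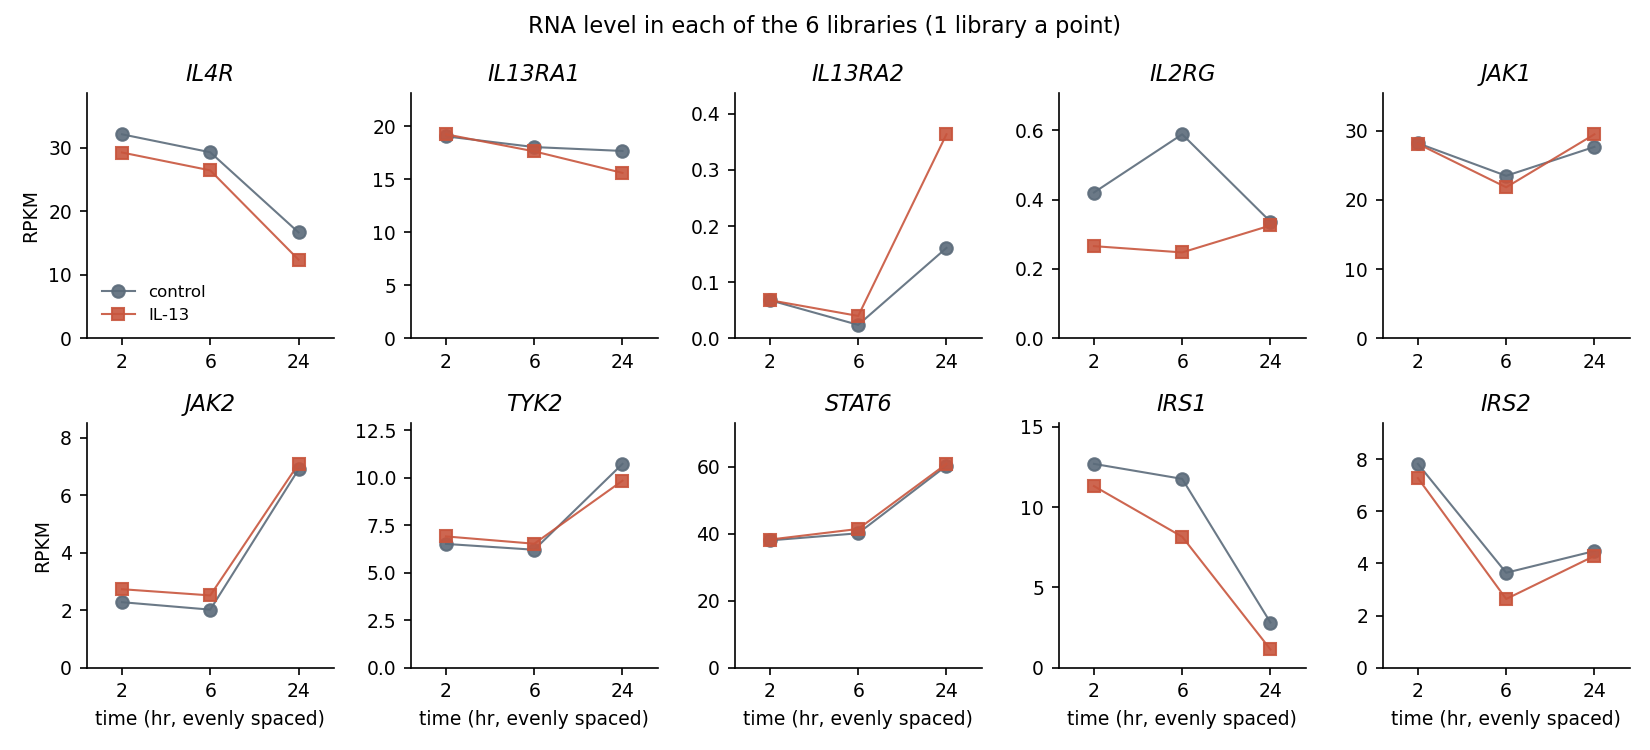
RPKM (vertical axis, from 0, scaled to each gene) at 2, 6 and 24 hr (horizontal axis, evenly spaced) for the 10 genes, with grey circles for untreated cells and red squares for IL-13. Each point is 1 library, and lines only join points of the same treatment. STAT6 and JAK2 are highest at 24 hr, IL4R and IRS1 lowest there, and IL2RG and IL13RA2 stay under 1 RPKM.

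The effect of IL-13 on its own receptor pathway was asked at each time. It is given as a log2 ratio of IL-13 over control on values to which 0.1 RPKM was added, and a gene was called when it differed at least 2-fold and reached 1 RPKM in the higher library. With 1 library a group there is no replicate check at a single time. Of the 8 genes that reached 1 RPKM, 0 were called at 2 hr, 0 at 6 hr and 1 at 24 hr. By the same rule 1.00%, 1.07% and 2.16% of all expressed genes were called, and 1.27% were called lower at 24 hr. The called gene was IRS1, with log2 ratios of -0.16, -0.52 and -1.23 over the times, or 2.47-fold lower at 24 hr. At 24 hr 0.878% of expressed genes had a ratio below it, and at 6 hr 1.72% did. With a pseudocount of 1 in place of 0.1 the 24 hr ratio was -0.83 and IRS1 was not called.

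The other genes stayed within 2-fold. IRS2 had log2 ratios of -0.10, -0.45 and -0.06, so its lowest ratio was at 6 hr, where 2.22% of expressed genes were below it. IL4R had -0.13, -0.15 and -0.43, and 6.35% of expressed genes were below it at 24 hr. JAK2 had 0.25, 0.30 and 0.04, above 92.3%, 94.1% and 54.1% of expressed genes. IL13RA1 (0.01, -0.03 and -0.18), JAK1 (0.00, -0.11 and 0.09), TYK2 (0.08, 0.07 and -0.12) and STAT6 (0.01, 0.05 and 0.01) differed less. The median over the 8 genes was 0.00, -0.07 and -0.09, against 0.00, 0.00 and 0.02 over all expressed genes. IL4R, IRS1 and IRS2 had ratios under 0 at all 3 times, which is 3 of 8 against 20.1% of all expressed genes. JAK2 and STAT6 had ratios above 0 at all 3 times, 2 of 8 against 23.3%, though at 24 hr the STAT6 ratio relative to the median of all genes was -0.01.

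**Figure D2:**
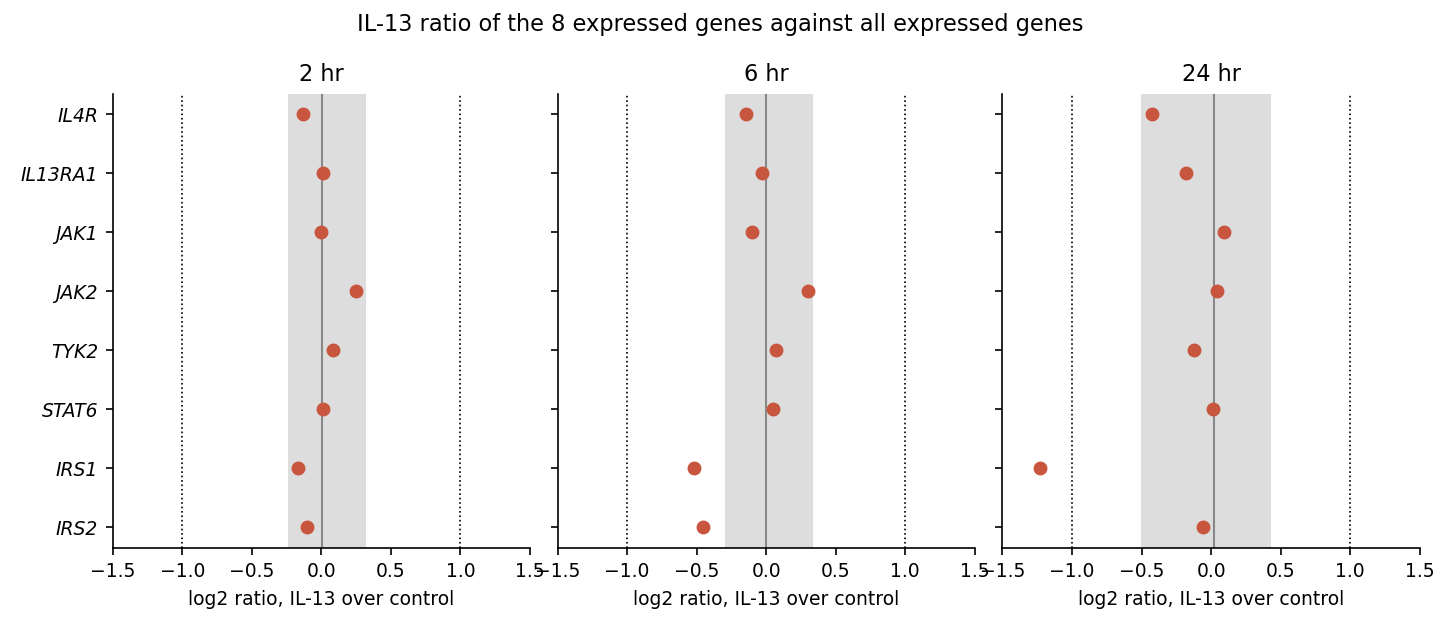
Log2 ratio of IL-13 over control (horizontal axis) for the 8 genes that reached 1 RPKM (vertical axis), with 1 panel for each time. Each dot is 1 pair of libraries, the grey band spans the 5th to 95th percentile of all expressed genes, the grey line is their median, and dotted lines mark 2-fold. IRS1 lies outside the band at 6 and 24 hr and past 2-fold at 24 hr, at -1.23. IRS2 lies outside the band at 6 hr, at -0.45.

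In the authors' deposited table IRS1 at 24 hr was the only result for these 10 genes with an adjusted p under 0.05, at a log2 ratio of -1.32 and an adjusted p of 0.00351. Among all genes of the authors' deposited tables, 0.0127%, 0.351% and 0.592% passed at 2, 6 and 24 hr. At 6 hr the authors' deposited table gave unadjusted p-values of 0.0269 for both IRS1 and IRS2, each with an adjusted p of 1. For IL4R at 24 hr the authors' deposited table gave an unadjusted p-value of 0.0481. The 24 hr p-values compare 2 libraries, not conditions. At 2 and 6 hr each library had 2 read sets, and how these entered the p-values is not given in the sources used here.

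To use the spread over times, limma was fitted to the log2 values of all 6 libraries with terms for time and treatment, so that the 3 times stand in for replicates of the treatment. The residual had 2 degrees of freedom, and nothing says that the libraries came from separate cultures. The untreated 2 and 6 hr libraries appear to share reads, so the IL-13 ratios of these times are not independent. None of the 8 genes was called for IL-13 at a Benjamini-Hochberg adjusted p under 0.05, and 0% of the 11953 genes tested were. CCL26, the check of the treatment above, was not called either, at 3.36 ± 0.57 (adjusted p of 0.177 in limma). SOCS1 and CISH, described below, each had an adjusted p of 0.163 in limma. The lack of a call in this fit thus does not show that a gene did not respond. At an unadjusted p under 0.05 there were 3 of the 8 and 2025 of all. IL4R had a log2 change of -0.24 ± 0.08 (SE), with an adjusted p of 0.268 in limma. IRS1 had -0.64 ± 0.22 (adjusted p of 0.278 in limma), and JAK2 had 0.20 ± 0.07 (adjusted p of 0.283 in limma). Single pairs of libraries moved these estimates. Without the 24 hr pair IRS1 had -0.34 and IL4R -0.14, and without the 6 hr pair IRS2 had -0.08. The estimates for STAT6, TYK2 and JAK1 were 0.02 ± 0.04, 0.01 ± 0.06 and -0.01 ± 0.06, those for IL13RA1 and IRS2 -0.07 ± 0.06 and -0.20 ± 0.10, and the adjusted p of these 5 ranged from 0.372 to 0.967 in limma.

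Time gave more calls than IL-13, over all genes tested as well as over these 8. The same limma fit compared 24 hr with 6 hr over both treatments, the control and IL-13 libraries of a time standing in for replicates. By this test 7 of the 8 genes were called, 5 higher and 2 lower, while 46.6% of all genes tested were called higher and 26.1% lower. IRS1 fell by 2.38 ± 0.27 on the log2 scale and IL4R by 0.95 ± 0.10 (limma adjusted p of 0.00219 and 0.0016). JAK2 rose by 1.59 ± 0.08, TYK2 by 0.68 ± 0.08 and STAT6 by 0.57 ± 0.05, with limma adjusted p of 0.000512, 0.0021 and 0.00127. IRS2 (0.49 ± 0.12, limma adjusted p of 0.0199) and JAK1 (0.33 ± 0.07, limma adjusted p of 0.0134) were also called higher. IL13RA1 was not, at -0.10 ± 0.07 with a limma adjusted p of 0.251.

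Part of this change was shared by the whole table. The median of all genes was 0.18 higher at 24 hr than at 6 hr, and centring each library on its median turned the split of all called genes from 5570 higher and 3123 lower to 3748 higher and 4820 lower, or 31.4% and 40.3% of the genes tested. After centring IRS1 (-2.64), IL4R (-1.21), JAK2 (1.33), TYK2 (0.42) and STAT6 (0.31) kept their direction and their call. JAK1 (0.07, limma adjusted p of 0.405) and IRS2 (0.23, limma adjusted p of 0.149) lost theirs, and IL13RA1 was called lower (-0.36, limma adjusted p of 0.00946). IRS2 also lost its call without the IL-13 library of 6 hr (0.30, limma adjusted p of 0.0779) or of 24 hr (0.38, limma adjusted p of 0.0772), and JAK1 without that of 6 hr (0.26, limma adjusted p of 0.115). The epithelial markers summed to 4592 and 4689 RPKM at 2 hr, 4553 and 4520 RPKM at 6 hr, and 5789 and 4000 RPKM at 24 hr, untreated before IL-13, and their part in the result was not tested. Time, culture and library run cannot be told apart here.

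Between 2 and 6 hr, 2 of the 8 genes were called, both lower, where 10.0% of all genes tested were called lower. IRS2 fell by 1.25 ± 0.12 on the log2 scale (limma adjusted p of 0.0116) and JAK1 by 0.31 ± 0.07 (limma adjusted p of 0.0412). Neither call held with any 1 of the 4 libraries at 2 and 6 hr left out, or with no filter on low values. The other 6 genes had limma adjusted p from 0.216 to 0.478. The fit takes the untreated libraries of these times as separate, although they appear to share reads.

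**Figure D3:**
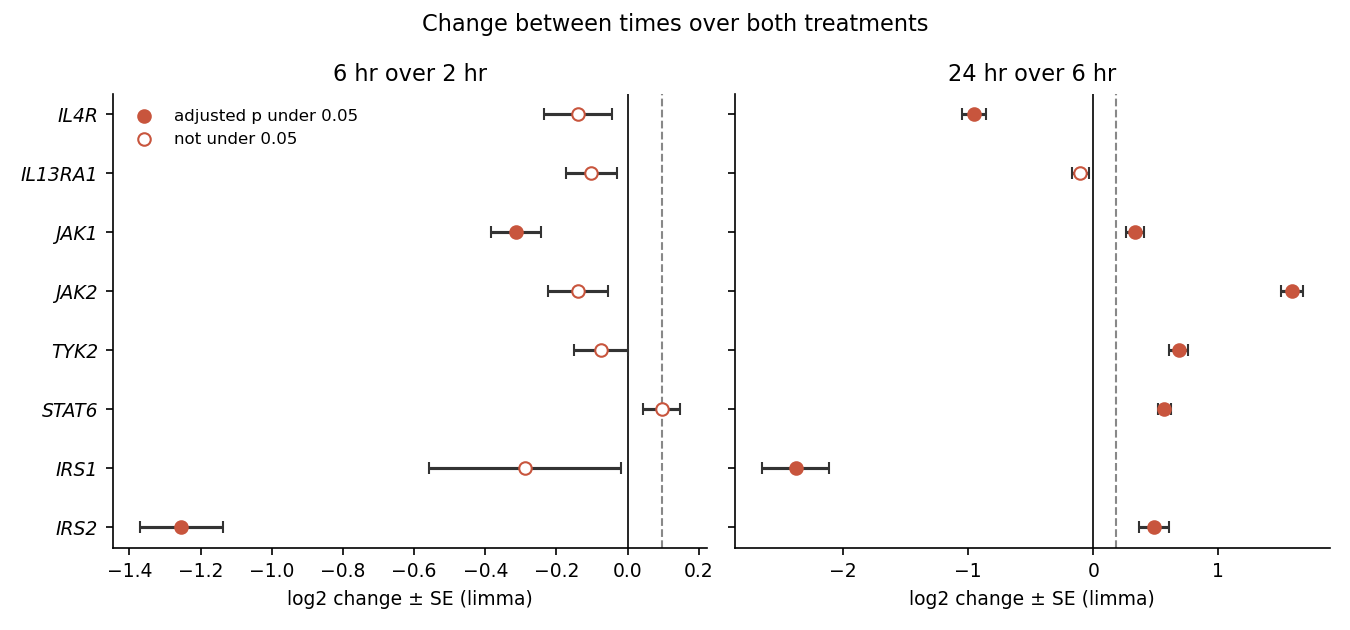
Log2 change with its SE from limma (horizontal axes, of different scale) from 2 to 6 hr (left) and from 6 to 24 hr (right) for the 8 genes (vertical axis), over both treatments. Filled dots passed an adjusted p of 0.05, open dots did not, and the dashed line is the median of all genes. IRS1 at -2.38 and JAK2 at 1.59 are the extremes of the right panel, and IRS2 at -1.25 stands apart in the left.

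By the 2-fold rule the time changes could be read within each treatment. From 2 to 6 hr IRS2 was called lower in untreated cells and with IL-13, as were 2.36% and 2.90% of expressed genes. From 6 to 24 hr JAK2 was called higher in both, as were 16.2% and 14.9% of expressed genes. IRS1 was called lower in both from 6 to 24 hr, and IL4R with IL-13, where 6.09% (untreated) and 5.01% (IL-13) of expressed genes were called lower. IL4R fell in both, with a log2 ratio of -0.81 in untreated cells, short of 2-fold, and of -1.09 with IL-13. The difference in IL4R between the treatments was not tested.

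The genes with the profiles most like those of IRS1, JAK2 and IRS2, the most variable of the 8 genes that reached 1 RPKM, were found by the root mean square difference of centred log2 levels over the 6 libraries, among 11816 genes. For IRS1 they were LIPG, the endothelial lipase (difference of 0.230 on the log2 scale), FSTL3, a follistatin-like inhibitor of activins (0.236), and S100A2, a calcium-binding protein of squamous epithelium (0.253). S100A2 stood at 824, 779 and 183 RPKM in untreated cells and at 692, 636 and 125 RPKM with IL-13. For JAK2 they were SLC2A10, a glucose transporter (0.0554), the interferon-induced IFIT1 (0.0570) and HEXDC, a hexosaminidase (0.0577). SLC2A10 stood at 6.59, 5.96 and 18.6 RPKM in untreated cells and at 7.50, 6.53 and 19.5 RPKM with IL-13. For IRS2 they were IGF1R, the receptor of insulin-like growth factors (0.123), SDC4, a syndecan (0.132), and MCL1, an antiapoptotic protein (0.141). MCL1 stood at 273, 126 and 168 RPKM in untreated cells and at 254, 123 and 167 RPKM with IL-13. The libraries share depth and preparation across genes, so these are descriptions.

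Around the pathway 3 genes, SOCS1, CISH and LIFR, were called with IL-13 by the 2-fold rule, each higher at all 3 times. Over all expressed genes the share called in either direction was 1.00%, 1.07% and 2.16%, as above. Among 7 other JAK and STAT genes, of which 5, 5 and 6 reached 1 RPKM at 2, 6 and 24 hr, 0 were called at each time. Among 19 adaptors and phosphoinositide 3-kinase genes 0 were called at each time. Of 15 genes that restrain JAK-STAT signalling 2 were called higher and 0 lower at each time. SOCS1 stood at 1.99, 1.57 and 2.24 RPKM in untreated cells and at 9.42, 6.87 and 5.04 RPKM with IL-13. CISH stood at 3.50, 5.04 and 3.18 RPKM in untreated cells and at 16.1, 14.5 and 8.21 RPKM with IL-13. Of 36 other cytokine receptor chains 17, 17 and 19 reached 1 RPKM, and 1 was called higher and 0 lower at each time. This was LIFR, a receptor of leukemia inhibitory factor, at 1.74, 1.59 and 7.08 RPKM in untreated cells and 4.83, 7.18 and 22.1 RPKM with IL-13.

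At 6 hr the starts of IL4R and IL13RA1 carried peaks of all 3 marks, and no start of IL2RG or IL13RA2 did. A gene start was listed in the authors' tables where a peak lay at it. All 8 genes that reached 1 RPKM had a listed start for H3K4me3, H3K9Ac and H3K27Ac, and IL13RA2 and IL2RG had none for any mark. Over the genome 90.8%, 93.1% and 93.5% of genes at 1 RPKM or more at 6 hr had a listed start for the 3 marks, against 20.5%, 25.1% and 28.2% of genes under 1 RPKM, so these counts are near those of all genes at like levels. Of the genes whose promoters are printed, IRS1, IL4R, IL13RA1 and STAT6 thus had a peak at a listed start and IL2RG did not, but whether the peaks lie at the printed windows was not tested. The RefSeq promoters of genes with a listed H3K27Ac start had a median of 25 CpGs, against 7 for the rest.

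Each deposited peak has a value A, the mean log2 level of both libraries, a value M, the log2 ratio of library 1 over library 2 after the authors' rescaling, and a −log10 p. All are the authors' own values. Which library was treated is not given in the sources used here, so no direction of IL-13 is assigned, nor is library 1 taken to be the same treatment in each table. With 1 library for each mark and treatment no replicate check exists. A peak was called where M was 1 or more in either direction and the higher of its library levels, worked out from both values, reached 30.

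By the deposited M, IL13RA1 was the gene of the 8 whose acetylation ratio passed 2-fold. Its peaks were merged from both libraries, and how M was formed for such peaks is not given in the sources used here. In the authors' deposited table its H3K27Ac peak had an M of 1.40 with a −log10 p of 5.75, or levels of 128 in library 1 and 48.5 in library 2. Its H3K9Ac peak had an M of 1.36 with a −log10 p of 5.54 in the authors' deposited table, or levels of 162 and 63.1. Its H3K4me3 peak had an M of -0.63 with a −log10 p of 1.15 in the authors' deposited table, or levels of 36.9 and 57.1. The acetylation ratios were above 98.1% and 98.5% of all H3K27Ac and H3K9Ac peaks. Of the 8 genes, 0 were called for H3K4me3, 1 for H3K9Ac and 1 for H3K27Ac, the latter both IL13RA1, against 10.8%, 7.39% and 8.75% of all listed peaks in either direction. The RNA of this gene at 6 hr was 18.0 RPKM without and 17.6 RPKM with IL-13.

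The STAT6 start carried some of the strongest acetylation in the tables. In the authors' deposited table its A was 9.37 for H3K27Ac and 9.11 for H3K9Ac, above 99.0% and 98.6% of peaks. Its M in the authors' deposited table was 0.02 for H3K27Ac, 0.39 for H3K9Ac and 0.83 for H3K4me3. The −log10 p of these peaks in the authors' deposited table were 0.32, 4.75 and 3.29. STAT6 is listed with 2 starts that share these values.

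As deposited, the M of the kinases and adaptors was under 1 in size at all 3 marks, though 2 of the H3K27Ac values are in doubt. For H3K27Ac the authors' deposited table gave an M of 0.87 for JAK1, 0.12 for JAK2, -0.10 for TYK2, 0.65 for IRS1 and -0.01 for IRS2. For H3K9Ac the authors' deposited table gave -0.02, 0.47, -0.07, 0.51 and -0.01 for the same genes. The −log10 p of these H3K9Ac peaks in the authors' deposited table were 0.30, 4.24, 1.13, 3.36 and 0.30. For H3K4me3 the authors' deposited table gave -0.44, 0.44, 0.20, -0.20 and -0.62. The −log10 p of JAK1 and IRS1 for H3K27Ac were 1.86 and 1.95 in the authors' deposited table. For these 2 peaks M looked out of step with the raw read columns of the same rows, which were not otherwise used, and how M was formed for a peak merged from both libraries is not given in the sources used here. Both H3K27Ac values are therefore in doubt, and so is the lack of a call for these 2 genes at that mark. The same gap in the sources applies to the merged peaks of IL13RA1, and whether their M was in step with the raw read columns is not stated here.

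IL4R had a peak for each mark and was the only gene of the 8 with a second H3K27Ac peak at its start. In the authors' deposited table its common peak had an M of 0.33 for H3K27Ac, -0.14 for H3K9Ac and -0.53 for H3K4me3. The −log10 p of these in the authors' deposited table were 2.60, 0.54 and 2.45. The second H3K27Ac peak, found in library 2 alone, had an M of -0.57 in the authors' deposited table, or levels of 60.8 and 90.2, so it held signal in both libraries.

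**Figure D4:**
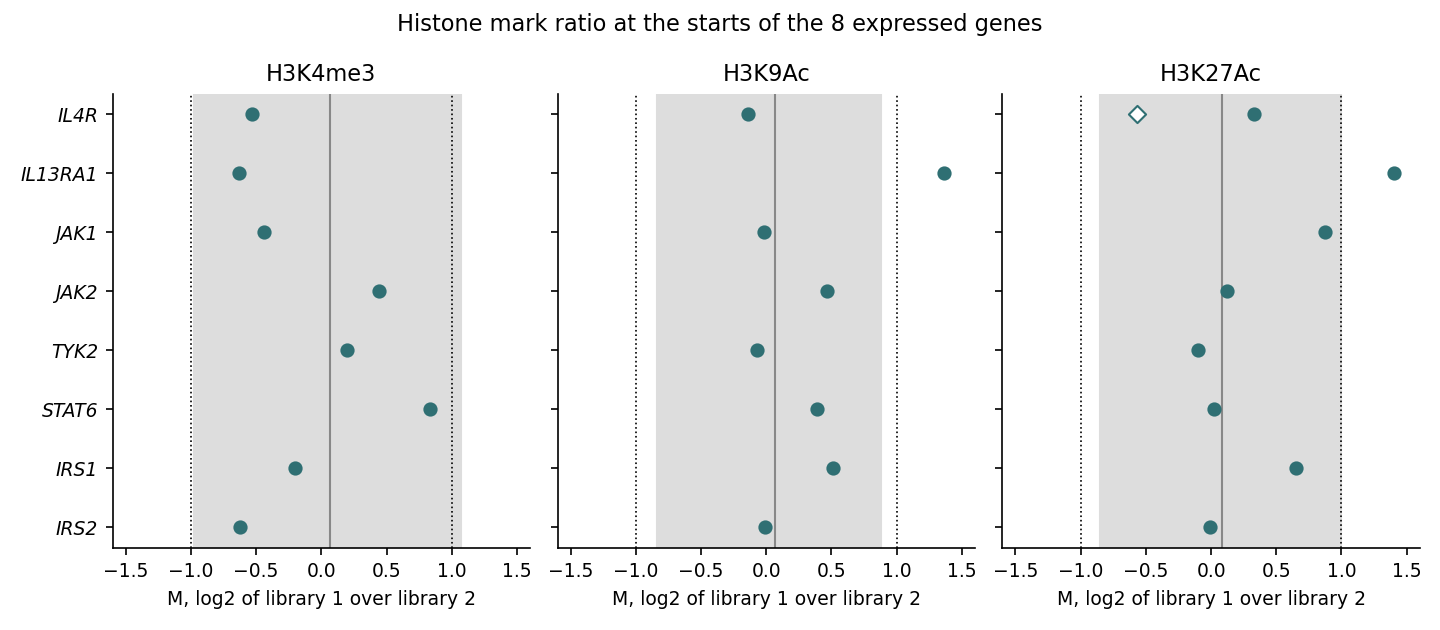
M, the log2 ratio of library 1 over library 2 (horizontal axis), at the starts of the 8 genes (vertical axis), with 1 panel for each mark. Each dot is 1 peak, the open diamond is the IL4R peak called in library 2 alone, the grey band spans the 5th to 95th percentile of all peaks, the grey line is their median, and dotted lines mark 2-fold. IL13RA1 lies past 2-fold for H3K9Ac (1.36) and H3K27Ac (1.40) and within it for H3K4me3 (-0.63). The H3K27Ac dots of JAK1 and IRS1 show values that are in doubt.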

How the data were processed

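RNA of 6 libraries and chromatin of 6 libraries were used, and input DNA was not analysed here. Per the submitters' processing notes, hg19, TopHat2 2.0.9, Bowtie 1.0.0, MACS2 2.0.10.20130712 and DESeq were used, and no source used here gives the counting and pooling steps. The authors deposited RPKM values for each library, and the log2 ratio, p-value and adjusted p-value of each time's comparison. The deposited peak tables give M and A on a log2 scale and a −log10 p for each peak. A further 6 columns of per-library values were not used.

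From these, log2(RPKM + 0.1) was compared with a 2-fold and 1 RPKM rule. Genes at 1 RPKM or more in at least 3 libraries were fitted with limma 3.58.1 (R 4.3.3) on time and treatment, with Benjamini-Hochberg adjustment, after it was tested on simulated data. The simulated data had no change with time and no shared reads, so that test does not show how the fit performs on these libraries. Depth was read from the steps of low values, of which 89.8% to 96.4% fell on whole reads within 0.5%. RefSeq promoters and motifs were searched with Python 3.11.15. Marker lists of fibroblasts and endothelium had 1 of 7 and 0 to 1 of 5 genes at 1 RPKM. Each gene of the pathway lists called with IL-13 by the 2-fold rule was named, up to 4 a list. Marker genes were outside this naming. Among them 5 brain genes were called lower with IL-13 at 2 hr. At 24 hr KRT14 of the epithelial list was called lower (287 RPKM untreated, 137 RPKM with IL-13). VWF of the endothelial list was called higher at 24 hr (0.943 RPKM untreated, 4.21 RPKM with IL-13). JAK3, STAT2 and IL20RB were named after their values were seen. The members and lists were chosen with earlier results of these data known. Alternatives were another pseudocount, minimum, threshold, centring and each library left out.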

Additional observations from a re-analysis of the deposited data

How the results depend on the processing

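A count was taken as kept if it was equal to the main count or within 1.5-fold of it. Of the counts of these genes called, 49 were kept in this sense under an alternative and 8 moved. A count has no direction to reverse, and many of those that stayed were 0 in both settings. Of the other values, which include those of single genes, 290 were kept, 25 moved, 16 lost a call and 2 gained one. For counts over all genes, kept again means within 1.5-fold. For a log2 ratio it means a shift smaller than the residual standard deviation of the gene. For a limma change it means an unchanged call, and uncalled changes could differ in sign. With a pseudocount of 1 the count of these genes called at 24 hr was 0 in place of 1. From 2 to 6 hr the count of 2 became 0 with no filter on low values and ranged from 0 to 2 with 1 library left out. At a 1.5-fold threshold the H3K4me3 count was 3 (IL13RA1, IRS2, STAT6) and the H3K27Ac count 3 (IL13RA1, and IRS1 and JAK1, whose values are in doubt), where 31.8% and 22.3% of all peaks passed. The cause was not tested.

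From 6 to 24 hr 5 to 8 of the 8 genes were called with 1 library left out. IRS2 also lost its call with no filter on low values (limma adjusted p of 0.0516), and IL13RA1 was called without the 24 hr control (limma adjusted p of 0.0464).

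Counts over all genes moved more. At 2, 6 and 24 hr 120, 128 and 270 genes were called. A pseudocount of 1 gave 60, 64 and 155, no minimum 524, 444 and 839, a minimum of 0.5 RPKM 201, 201 and 414, and a 1.5-fold threshold 297, 361 and 801. For IL-13 over all times limma called 0, but 7 with a pseudocount of 1, 6 with a trend and 7 without either 2 hr library. From 2 to 6 hr it called 3383, but 148 with no filter and 52 to 6260 with 1 library left out. No paired analysis was possible because the labels carry no replicate numbers to use as a block. The time term of the limma fit already compares treatments within each time.

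Depth of 13.0 to 26.9 M reads for a set limits IL13RA2 and IL2RG, whose values rest on few reads.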

Other observations

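Other lists around the pathway were compared between times. Of 36 chains listed, 17 were tested by limma between 6 and 24 hr over both treatments, and 13 were called higher and 1 lower, against 46.6% and 26.1% of all genes. With libraries centred on their medians 11 were called higher and 2 lower, against 31.4% and 40.3% of all genes. No test compares the lists with other genes, and the same shares stand beside each count that follows. IL20RB, a chain of the receptors of interleukin-20 family cytokines, rose by 2.30 ± 0.05 on the log2 scale (limma adjusted p of 0.000376), and was named after its value was seen. Of the 14 adaptor and phosphoinositide 3-kinase genes tested 8 were called higher and 2 lower, or 6 and 4 after centring. Of the 15 genes that restrain JAK-STAT signalling 6 were called higher and 4 lower, or 2 and 6 after centring, the latter near the 40.3% of all genes.

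All 5 tested genes among the other JAKs and STATs were called higher at 24 hr, against 46.6% of all genes, and 2 of them after centring, near the 31.4% of all genes. STAT2, a transcription factor of the interferon response, stood at 8.95, 6.52 and 41.7 RPKM in untreated cells and at 10.6, 6.25 and 49.7 RPKM with IL-13, a limma change of 2.81 ± 0.10 on the log2 scale from 6 to 24 hr (adjusted p of 0.000393), or 2.55 ± 0.10 after centring. Its fold was thus larger than that of STAT6, which changed by 0.57 ± 0.05. The difference between these genes was not tested.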
